A study of Saccharomyces cerevisiae with 4 samples.

Results

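The 60 genes from RPL1A to RPL34B encode proteins of the large subunit of the cytosolic ribosome of Saccharomyces cerevisiae. They were taken by their systematic names, from YPL220W (RPL1A) and YGL135W (RPL1B) to YER056C-A (RPL34A) and YIL052C (RPL34B), and all 60 were among the 6418 genes analysed. Of these, 52 form 26 pairs of A and B paralogs and 8 are present as 1 copy (RPL3, RPL5, RPL10, RPL25, RPL28, RPL29, RPL30 and RPL32). RNA was sequenced from 4 strains, with 1 library per strain, so that no difference between strains has a replicate error and no test between them was possible. Every strain was derived from byMM584 (CEN.PK2-1C), a haploid laboratory strain of mating type MATa that carries the alleles his3D1, ura3-52, trp1-289 and leu2-3_112 together with MAL2-8c and SUC2. Every strain also carried a reporter circuit with yEGFP on a LEU2 plasmid, which was not the same plasmid in the denAsCas12a and dCas12e strains, and MCP-VP64, a phage coat protein fused to an activation domain, under the constitutive ADH1 promoter. The strain byMM1777 expressed denAsCas12a, a Cas12a protein without DNA cleavage, under the constitutive GPD promoter, and no scaffold RNA (ScRNA). The strain byMM1827 had in addition an ScRNA plasmid with the HIS3 marker, and targeted the lexOpR sites of the reporter and the HED1 promoter. The strain byMM1736 expressed dCas12e without ScRNA, and byMM1832 had in addition ScRNA-L1 directed to lexOpR and the promoter of GAL7, again with HIS3 as the marker. The ScRNAs were transcribed from the SNR52 promoter. Cultures were diluted after a night and grown further at 30°C, and how many clones of a strain were grown is not given in the sources used here. Strain, culture and RNA preparation therefore cannot be told apart.

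The large subunit joins amino acids into protein at its catalytic centre, which is made of RNA, and releases the chain through a tunnel. Its proteins are made in the cytoplasm, imported into the nucleus and placed on the ribosomal RNA in the nucleolus, while a few join only after export. In yeast, transcription of the ribosomal protein genes is known to depend on Rap1, which recruits Fhl1 and Ifh1 at most of their promoters, and on Abf1 at a smaller group, and it follows growth rate and nutrients. A genome duplication left most of these genes in A and B copies, whose proteins differ little or not at all in most pairs.

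The pairs were told apart by few bases, and the coding stretches of the pairs on which the results below turn are shown here with the bases that differ between A and B in capitals. Sequences are those of the reference R64 from RefSeq, which is of strain S288C and not of CEN.PK2-1C, and they are written 5′ to 3′ on the coding strand. Over the 26 pairs the identity of the coding sequences was between 78.9% (RPL22) and 99.4% (RPL1), with a median of 93.5%. The identity of the proteins was between 84.4% (RPL22) and 100%, with a median of 99.1%. The proteins were identical in 7 pairs, RPL12 among them. Positions 1 to 120 of the coding sequence of RPL12A (chrV:53099-53218, minus strand) and RPL12B (chrIV:1301616-1301735, plus strand) hold 14 differences, positions 61 to 180 of RPL31A (chrIV:322707-322826, plus strand) and RPL31B (chrXII:931227-931346, minus strand) hold 11, and positions 121 to 240 of RPL34A (chrV:269549-269668, minus strand) and RPL34B (chrIX:256352-256471, minus strand) hold 7. RPL1A (chrXVI:135790-135834, plus strand) and RPL1B (chrVII:254641-254685, plus strand) are shown as the most alike pair, with 4 differences in 654 bases, of which 2 lie in the first 45.
RPL12A: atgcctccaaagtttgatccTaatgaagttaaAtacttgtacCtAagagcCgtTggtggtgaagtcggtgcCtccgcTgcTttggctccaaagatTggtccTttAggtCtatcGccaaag
RPL12B: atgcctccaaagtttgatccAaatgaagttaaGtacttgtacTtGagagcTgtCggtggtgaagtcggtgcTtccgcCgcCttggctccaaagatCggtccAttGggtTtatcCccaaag
RPL31A: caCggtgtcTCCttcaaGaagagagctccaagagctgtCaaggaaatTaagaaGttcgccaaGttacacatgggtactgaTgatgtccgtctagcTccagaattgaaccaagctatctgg
RPL31B: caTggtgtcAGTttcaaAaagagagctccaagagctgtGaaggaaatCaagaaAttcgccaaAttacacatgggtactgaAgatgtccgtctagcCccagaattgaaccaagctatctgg
RPL34A: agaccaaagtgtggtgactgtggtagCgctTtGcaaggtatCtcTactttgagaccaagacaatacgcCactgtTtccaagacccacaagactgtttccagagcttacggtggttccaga
RPL34B: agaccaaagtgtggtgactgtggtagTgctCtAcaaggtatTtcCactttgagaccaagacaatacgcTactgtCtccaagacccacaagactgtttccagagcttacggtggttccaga
RPL1A: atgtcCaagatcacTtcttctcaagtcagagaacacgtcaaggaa
RPL1B: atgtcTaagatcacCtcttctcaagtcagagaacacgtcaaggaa

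The share of 31-base words of a gene's coding sequence that occur once in the genome was computed as a measure of how far reads can be assigned to 1 copy. It was 12.3% for both copies of RPL1, 18.6% for RPL4, 31.02% for RPL7, 33.7% for RPL11 and 45.9% for RPL14. In the other 21 pairs it was at least 61.1%, as in RPL2. The handling of reads that fit both copies is not given in the sources used here, so the A and B values of RPL1, RPL4, RPL7, RPL11 and RPL14 are the least certain. No coding sequence of the 60 genes overlapped another gene present both in the data and in the R64 annotation. Genes of the data that are not in that annotation were not checked for overlap.

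The upstream sequences were searched on both strands for 2 patterns of the Rap1 site, ACACCCNNA and ACCCNNACA, within 500 bases before the coding start. The patterns can overlap in ACCCNNA. The first was found upstream of 12 of the 60 genes and of 4.02% of the 5978 nuclear coding genes, and the second upstream of 26 (43.3%) and of 5.49%. Either pattern was found at 29 members (48.3%), at 30 of the other 77 ribosomal protein genes and at 8.23% of all genes. A match to the Abf1 consensus was found at 5 members (8.33%), namely RPL3, RPL4A, RPL8B, RPL13B and RPL15A, and at 18.2% of all genes. Both copies held a Rap1 pattern in 7 pairs, only the A or only the B copy in 12 pairs, and neither in 7 pairs. Stretches of 60 bases on the coding strand of the gene are shown for some members that return below, picked by hand, with the letters of the pattern in capitals. They are RPL5 (chrXVI:302822-302881, plus strand), RPL12B (chrIV:1301116-1301175, plus strand), RPL14A (chrXI:431471-431530, plus strand), RPL34A (chrV:270463-270522, minus strand), RPL34B (chrIX:257479-257538, minus strand) and RPL22B (chrVI:65122-65181, minus strand). No such pattern was found in the windows of RPL12A, RPL10, RPL14B, RPL22A, RPL29, RPL30, RPL31A and RPL31B, which also return below.
RPL5: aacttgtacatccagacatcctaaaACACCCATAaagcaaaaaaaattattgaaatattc
RPL12B: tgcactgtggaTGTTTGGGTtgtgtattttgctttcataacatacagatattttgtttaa
RPL14A: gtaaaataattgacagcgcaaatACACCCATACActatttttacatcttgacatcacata
RPL34A: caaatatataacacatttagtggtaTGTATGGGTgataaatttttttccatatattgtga
RPL34B: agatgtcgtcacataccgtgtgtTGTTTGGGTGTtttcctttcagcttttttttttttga
RPL22B: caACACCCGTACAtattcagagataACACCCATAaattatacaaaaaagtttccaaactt

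The total count was between 37275559 (byMM1777) and 54013763 (byMM1827) per library, and the 60 genes had between 335 and 67198 counts each. All 60 passed the minimum of a mean of 10 counts, as did 6010 genes in all. The intervals given below are 95% Clopper-Pearson intervals of the counts and cover counting error only. The genes of the circuits served to check the labels. HIS3 had 207 TPM in byMM1777 and 255 in byMM1736, against 5309 in byMM1827 and 2770 in byMM1832, the strains with the HIS3 plasmid. HED1, the target in byMM1827, had 15.8 TPM in byMM1777, 30.3 in byMM1827, 16.6 in byMM1736 and 8.43 in byMM1832. GAL7, the target in byMM1832, had 1.62, 2.70, 2.05 and 3.53 TPM in the same order, and was thus highest in byMM1832. Its counts were low, between 68 and 189. The ratio was 1.72 in byMM1832 over byMM1736, but also 1.67 in byMM1827 over byMM1777, where GAL7 was not targeted. GAL7 therefore does not tell the targeted strain apart. Of the markers of mating type, the 6 genes of MATa cells summed to between 1912 and 2713 TPM, and the 4 genes of MATalpha cells to between 73.6 and 80.9 TPM.

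The members together were highest in byMM1832. In TPM, a unit of transcript abundance, a count is divided by the length of its gene and expressed as a part of the whole library, so that genes can be compared per length. The 60 genes summed to 15800 TPM in byMM1777, 16106 in byMM1827, 18642 in byMM1736 and 26905 in byMM1832, or 1.58%, 1.61%, 1.87% and 2.69% of all TPM. The level of the median member was 227, 231, 255.7 and 376 TPM in the same order, while that of the median gene was between 37.2 and 44.3 TPM. In each library the median member stood above 86.6% (byMM1777) to 91.8% (byMM1832) of the genes. Of the 60 genes, 59 lay above the median gene in every library, the exception being RPL22B. The strain byMM1832 had the highest level of 59 members, and byMM1827 that of RPL15B, by less than the counting interval of the ratio. The lowest level was in byMM1777 for 29 members, in byMM1827 for 24 and in byMM1736 for 7. The shares of all genes that were highest or lowest in each library were not computed. Plain TPM differed between the libraries for genes at large. Of all genes, 28.4% were higher in byMM1827 than in byMM1777, and 23.5% in byMM1736 than in byMM1777. In byMM1832, 54.0% were higher than in byMM1736 and 46.1% higher than in byMM1827. In bulk RNA, fewer cells that express a gene and less RNA per cell cannot be told apart, and TPM gives shares of the RNA, not amounts per cell.

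**Figure D1:**
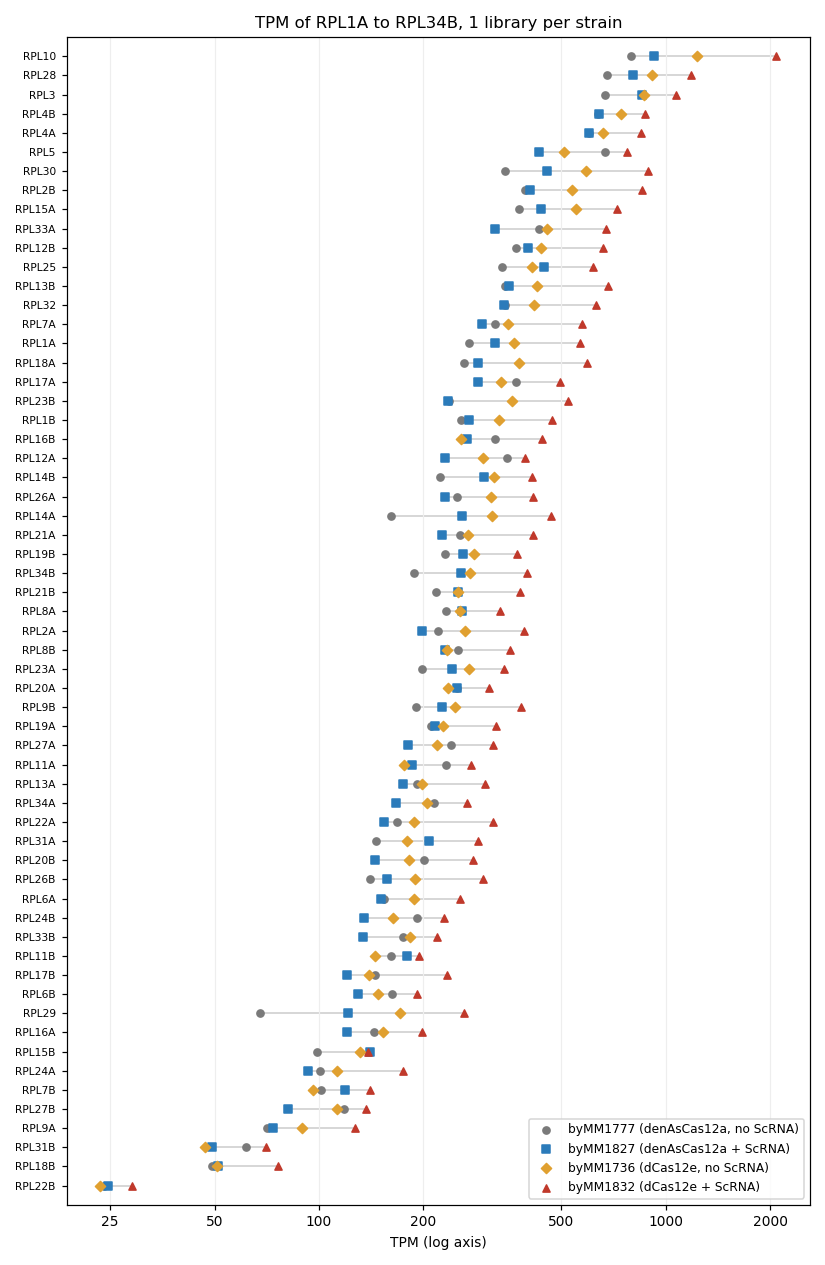
TPM of each of the 60 genes (log axis) in the 4 libraries, ordered by the mean over the libraries, with a grey line from the lowest to the highest library of a gene. The red triangles of byMM1832 are the rightmost points of 59 of the 60 genes, and RPL29 and RPL14A have the widest lines.

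The most abundant member was RPL10 (YLR075W), whose protein completes the subunit next to the catalytic centre after export. It had 791 TPM in byMM1777, 926 in byMM1827, 1227 in byMM1736 and 2082 in byMM1832. RPL28 (YGL103W), which carries the known mutations for resistance to cycloheximide, had 677, 804, 911 and 1185 TPM in the same order of strains. RPL3 (YOR063W), whose protein reaches towards the catalytic centre, had 666, 854, 864 and 1072 TPM. These 3 genes of 1 copy followed the order byMM1777, byMM1827, byMM1736, byMM1832, although RPL3 differed by little between byMM1827 and byMM1736. The copies of RPL4, whose protein lines the tunnel, came next. RPL4B (YDR012W) had 639, 641, 741 and 873 TPM, and RPL4A (YBR031W) had 600, 601, 657 and 850 TPM. Their levels in byMM1777 and byMM1827 lay within the counting interval of each other.

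The least abundant member was RPL22B (YFL034C-A), whose protein sits near the tunnel exit, with 24.1 TPM in byMM1777, 24.6 in byMM1827, 23.4 in byMM1736 and 29.0 in byMM1832. RPL18B (YNL301C) had 49.2, 51.0, 50.9 and 76.1 TPM. RPL31B (YLR406C), also a gene of the tunnel exit, had 61.4, 49.2, 46.9 and 70.3 TPM. In these 3 minor copies byMM1832 was highest again, and the other 3 libraries of RPL22B and of RPL18B differed by less than their counting intervals. RPL9A (YGL147C) had 70.7, 73.7, 89.5 and 127 TPM, and RPL27B (YDR471W) had 118, 81.4, 113 and 137 TPM. The 5 least abundant members were thus copies of pairs. The partner was higher in every library, and the smallest such ratio was 1.93 (RPL27A over RPL27B in byMM1736).

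Among the other genes of 1 copy, RPL5 and RPL29 stood at opposite ends. RPL5 (YPL131W) encodes the protein that, with RPL11, carries the smallest ribosomal RNA into the subunit. It had 669 TPM in byMM1777, 430 in byMM1827, 509 in byMM1736 and 773 in byMM1832, so that it was higher in the denAsCas12a control than in byMM1827 and byMM1736. RPL29 (YFR032C-A), a small protein that joins the subunit late, had 67.5, 121.1, 171 and 262 TPM, the widest range of the 60 genes at 3.88-fold. RPL30 (YGL030W), whose protein represses the splicing of its own transcript in yeast, had 344, 456, 588 and 886 TPM. RPL25 (YOL127W), a docking site for factors that receive the new chain, had 337, 445, 411 and 616 TPM. RPL32 (YBL092W) had 344, 342, 416 and 627 TPM. All 8 genes of 1 copy were highest in byMM1832, and RPL5 was alone among them in being lower in byMM1736 than in byMM1777.

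The first comparison asked how the members differed between dCas12e with ScRNA (byMM1832) and without (byMM1736). For every gene the log2 ratio of TPM was taken and the median over the 6010 genes was subtracted, which removes a common factor between libraries. This median was 0.03 for the dCas12e pair, and a gene was counted when its centred ratio passed 1.5-fold. All 60 members were higher in byMM1832, both centred and as plain TPM, where a ratio above 1 was found for 54.0% of all genes. The plain ratios were between 1.05 and 1.71. Past 1.5-fold higher were 16 members (26.7%) against 3.69% of all genes, and past 1.5-fold lower were 0 against 7.89%. Relative to ACT1, 6 members were past 1.5-fold higher, for which the share of all genes was not computed. The centred median of the members was 0.53 on the log2 scale (1.44-fold), and the SD over the 60 members was 0.15, against 0.45 over all genes. For 59 members the whole counting interval lay above the median gene, the exception being RPL15B. These intervals are narrow, with a median half-width of 0.05, and the share of all genes was not computed for them. Among the 1639 genes whose mean reached 100 TPM the centred median was 0.03, and among the 405 of these that are no ribosomal protein genes and have a coding length of at most 600 bases it was -0.10. Of the 1639 genes, 4.58% were past 1.5-fold higher and 9.27% lower.

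The largest centred ratios of the dCas12e pair were those of RPL16B (0.74, counting interval 0.70 to 0.78), RPL10 (0.73, 0.71 to 0.75), RPL22A (0.72, 0.66 to 0.78), RPL17B (0.71, 0.66 to 0.77) and RPL7A (0.67, 0.64 to 0.70). RPL16B (YNL069C) had 257 TPM in byMM1736 and 439 in byMM1832. RPL22A (YLR061W) had 188 and 318 TPM, and RPL17B (YJL177W), whose protein lines the tunnel, had 139 and 234 TPM. Their intervals overlapped, so that no order among these 4 leading genes can be read. RPL7A (YGL076C) had 352 and 573 TPM. The smallest centred ratio was that of RPL15B (YMR121C), with 132 and 138 TPM and a centred ratio of 0.04 (-0.03 to 0.10). RPL4B had 0.20 (0.18 to 0.22), RPL33B (YOR234C) 0.22 (0.15 to 0.29), RPL27B 0.24 (0.16 to 0.32) and RPL22B 0.27 (0.09 to 0.46). The copies of RPL22 were thus found at different ends of the list, while RPL15A (0.36, 0.33 to 0.39) lay in its lower part together with RPL15B.

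The second comparison was that of denAsCas12a with ScRNA (byMM1827) against its control (byMM1777). Here the members moved apart. The centred ratio was above the median gene for 43 members and below it for 17, with a centred median of 0.18 (1.13-fold) and an SD of 0.32, against 0.34 over all genes. The median over all genes was -0.16 before centring. As plain TPM, 32 of the 60 members were higher in byMM1827, against 28.4% of all genes, with ratios between 0.64 and 1.79. Past 1.5-fold higher were 6 of the 60 members against 4.93% of all genes, and past 1.5-fold lower were 0 against 2.06%. Of the 1639 genes whose mean reached 100 TPM, 7.20% were past 1.5-fold higher and 1.77% lower. Their centred median was 0.088, and that of the 405 short genes of these was 0.0975, so that genes of high level were also above the median gene. The split of the members depended on the scaling, with 2 members higher and 2 lower as plain TPM, and 1 higher and 8 lower relative to ACT1. Shares of all genes past 1.5-fold were not computed for these scalings. The counting interval lay wholly above the median gene for 35 members and wholly below it for 16. These intervals are narrow, with a median half-width of 0.06, and the share of all genes was not computed for them.

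The highest of the denAsCas12a pair was RPL29, with a centred ratio of 1.004 (0.85 to 1.16). RPL14A (YKL006W) had 161 TPM in byMM1777 and 258 in byMM1827, a centred ratio of 0.84 (0.77 to 0.91). RPL15B had 98.8 and 141 TPM (0.67, 0.60 to 0.74), RPL31A (YDL075W) 146 and 207 TPM (0.66, 0.58 to 0.74) and RPL34B (YIL052C) 188 and 257 TPM (0.61, 0.54 to 0.68). RPL14B, with 0.59, lay at the threshold itself. The lowest was RPL5, with -0.48 (-0.50 to -0.45), of which the level was 669 TPM in byMM1777 and 430 in byMM1827. RPL12A (YEL054C), which encodes a protein at the base of the stalk that binds elongation factors, had 348 and 231 TPM (-0.43, -0.48 to -0.38). RPL27B had -0.37 (-0.47 to -0.28). RPL24B (YGR148C), whose protein replaces the assembly factor Rlp24 in the cytoplasm, had 191 and 135 TPM (-0.35, -0.41 to -0.28). RPL20B (YOR312C) had 201 and 145 TPM (-0.32, -0.38 to -0.25). The partner RPL12B had a centred ratio of 0.27 (0.23 to 0.32) and was also higher as plain TPM, so that the copies of RPL12 differed in direction. RPL20A had 0.16 (0.10 to 0.21), above the median gene, but 250.6 and 250.0 TPM. RPL24A had 0.04 (-0.05 to 0.13), for which no direction relative to the median gene can be read, with 101 and 92.7 TPM.

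The denAsCas12a pair depended on its control library. Against the other control, byMM1736, 9 members were above the median gene in byMM1827 and 51 below it, with a centred median of -0.30. In this comparison 0 members were past 1.5-fold higher, against 1.76% of all genes, and 1 was past 1.5-fold lower, against 1.45%. For byMM1832 against the other control, byMM1777, all 60 members were above the median gene, 48 of them past 1.5-fold higher against 11.3% of all genes, and 0 past 1.5-fold lower against 11.2%, with a centred median of 0.90. These ratios across Cas proteins were added after the data were seen, and they share their libraries with those above.

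**Figure D2:**
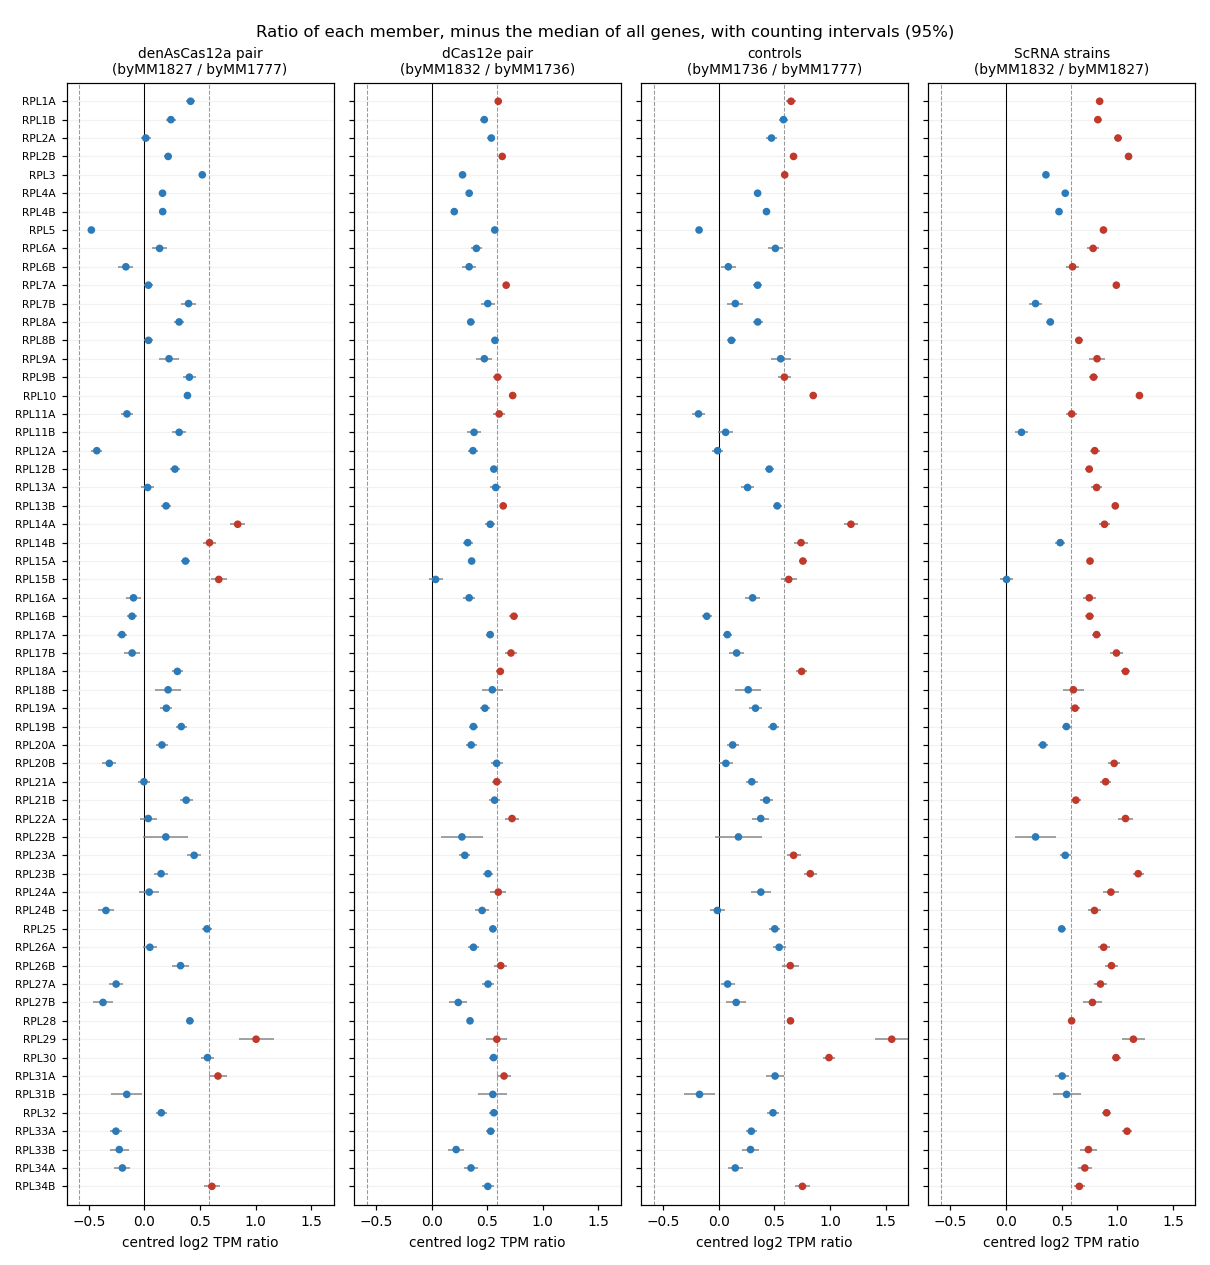
Centred log2 TPM ratio of each of the 60 genes in 4 comparisons, with 95% counting intervals as grey lines. The solid line at 0 is the median of all genes, dashed lines mark 1.5-fold, and genes past it are red: 6, 16, 17 and 45 genes from left to right.

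The controls without ScRNA differed in the members as well. In byMM1736 over byMM1777 the centred ratio was above the median gene for 54 members, and the centred median was 0.40 (1.32-fold), with an SD of 0.33. The median over all genes was -0.22 before centring, and as plain TPM 42 members were higher in byMM1736, against 23.5% of all genes. Past 1.5-fold higher were 17 members (28.3%) against 5.32% of all genes, and past 1.5-fold lower were 0 against 2.95%. Among the 1639 genes whose mean reached 100 TPM, 10.3% were past 1.5-fold higher and 0.73% lower, with a centred median of 0.13. Among the 405 short genes of these the centred median was 0.19. As plain TPM 5 members were past 1.5-fold higher, and relative to ACT1 2 were higher and 3 lower. Shares of all genes were not computed for these counts. RPL29 was highest with 1.55 (1.40 to 1.71), followed by RPL14A with 1.19 (1.12 to 1.254), RPL30 with 0.99 (0.94 to 1.04), RPL10 with 0.85 (0.82 to 0.87) and RPL23B (YER117W) with 0.82 (0.77 to 0.88). RPL23B, which encodes a protein next to the binding site of the anti-association factor Tif6, had 237 TPM in byMM1777 and 360 in byMM1736. At the other end were RPL11A (YPR102C) with -0.18 (-0.24 to -0.12), RPL5 with -0.18 (-0.20 to -0.15), RPL31B with -0.17 (-0.32 to -0.03), RPL16B with -0.11 (-0.15 to -0.06) and RPL24B with -0.01 (-0.08 to 0.05). RPL11A, the partner of RPL5 in the particle of the smallest ribosomal RNA, had 232 TPM in byMM1777 and 176 in byMM1736. The centred median of the controls, 0.40, lay between those of the denAsCas12a pair (0.18) and the dCas12e pair (0.53), although no control carried an ScRNA. The Cas protein, the plasmids and the culture cannot be told apart in it.

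Of the 4 comparisons, that of the strains with ScRNA had the largest centred median. In byMM1832 over byMM1827 all 60 members were above the median gene and 59 were higher as plain TPM, against 46.1% of all genes. Past 1.5-fold higher were 45 of the 60 members against 4.71% of all genes, and past 1.5-fold lower were 0 against 8.25%. The centred median of the members was 0.78 (1.72-fold), and the SD was 0.26. Among the 1639 genes whose mean reached 100 TPM, 9.70% were past 1.5-fold higher and 8.24% lower, with a centred median of 0.10. The largest ratios of members were those of RPL10 (1.20, 1.18 to 1.22), RPL23B (1.19, 1.14 to 1.24), RPL29 (1.15, 1.04 to 1.247), RPL2B (1.102, 1.07 to 1.13) and RPL33A (1.09, 1.04 to 1.13). RPL2B (YIL018W), whose protein is a conserved neighbour of the catalytic centre, had 407 TPM in byMM1827 and 855 in byMM1832. RPL33A (YPL143W) had 322 and 670 TPM. The smallest ratios were those of RPL15B (0.00, -0.06 to 0.07), RPL11B (0.14, 0.08 to 0.20), RPL22B (0.27, 0.09 to 0.45), RPL7B (0.27, 0.21 to 0.32) and RPL20A (0.33, 0.28 to 0.38). RPL11B (YGR085C) had 180 and 194 TPM, RPL7B (YPL198W) 119 and 140 TPM, and RPL20A (YMR242C) 250 and 308 TPM. RPL15B was the member nearest to no difference in byMM1832 over byMM1827 and over byMM1736, but in byMM1832 over byMM1777 it had 0.69, and the smallest ratio was that of RPL12A (0.38, 0.34 to 0.43). The 4 comparisons share libraries, so that they are not independent of each other.

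Grouped by role, the late members had the highest median in byMM1832 over byMM1827. RPL10, RPL24A, RPL24B and RPL29 had centred ratios between 0.80 and 1.20 there, and all 4 were past 1.5-fold, as were all 4 genes of the stalks and 45 of the 60 members. In the denAsCas12a pair the same genes were spread from -0.35 (RPL24B) to 1.004 (RPL29). The 3 genes of the particle of the smallest ribosomal RNA, RPL5, RPL11A and RPL11B, had -0.48, -0.16 and 0.31 for denAsCas12a and 0.57, 0.61 and 0.38 for dCas12e. The genes of the catalytic centre and the tunnel wall (RPL2A, RPL2B, RPL3, RPL4A and RPL4B) were all above the median gene in the 4 comparisons, with medians of 0.16, 0.34, 0.47 and 0.53 for the denAsCas12a pair, the dCas12e pair, the controls and the ScRNA strains. The 11 genes of the tunnel exit (RPL17, RPL19, RPL22, RPL26 and RPL31 with both copies, and RPL25) had medians of 0.19, 0.55, 0.38 and 0.62 in that order. The genes of the stalks, RPL1 and RPL12, had medians of 0.26, 0.52, 0.52 and 0.81, with RPL12A alone below the median gene in the denAsCas12a pair. In the controls RPL12A had -0.01 (-0.06 to 0.04), for which no direction can be read. These groups hold few genes and were given no test.

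The balance of A and B copies does not depend on how a library is scaled, since both copies come from the same library. In 12 pairs the A copy was higher in every library, in 8 pairs the B copy, and in 6 pairs the order changed between libraries (RPL6, RPL8, RPL14, RPL21, RPL23 and RPL34). For RPL23 this change was within counting error, since A exceeded B in byMM1827 alone, with 50.7% of the pair (49.7 to 51.6). The ratio of A to B differed between the libraries by 1.097-fold (RPL4) to 1.77-fold (RPL31), with a median of 1.36-fold over the 26 pairs. It differed by at least 25% in 18 of the 26 pairs, and by at least 1.5-fold in 9. Of the 33 other ribosomal protein pairs, 81.8% reached a difference of 25% and 15 reached 1.5-fold, with a median of 1.46-fold and a largest value of 4.04-fold. The shares among the RPL1 to RPL34 pairs were thus not above that background. Among the 21 pairs with at least 50% of unique words 15 reached this size, and among the 5 with fewer unique words 3 did.

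The pair with the largest difference was RPL31. The A copy had 70.4% of the pair (68.7 to 72.2) in byMM1777, 80.8% (79.7 to 81.9) in byMM1827, 79.2% (78.0 to 80.5) in byMM1736 and 80.4% (79.3 to 81.4) in byMM1832. RPL31A had 146, 207, 179 and 287 TPM and RPL31B 61.4, 49.2, 46.9 and 70.3 TPM, so that in byMM1777 the A copy was lowest while the B copy was not. In RPL34 the A copy had 53.2% (51.9 to 54.5), 39.4% (38.4 to 40.5), 42.8% (41.8 to 43.8) and 40.3% (39.4 to 41.1). RPL34A had 214, 167, 204 and 267 TPM and RPL34B 188, 257, 273 and 397 TPM, and byMM1777 was the only library with RPL34A above RPL34B. In RPL12 the A copy had 48.4% (47.6 to 49.3), 36.6% (35.9 to 37.3), 40.5% (39.8 to 41.2) and 37.4% (36.8 to 38.0). RPL12B (YDR418W) had 370, 401, 437 and 659 TPM. In these 3 pairs byMM1777 stood apart from the other 3 libraries, and without it the largest difference was 1.102-fold for RPL31, 1.15-fold for RPL34 and 1.18-fold for RPL12.

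In the other 3 of the 6 most variable pairs byMM1827 and byMM1832 were the extremes. The A copy of RPL22 had 87.5% (86.2 to 88.7) in byMM1777, 86.2% (85.1 to 87.3) in byMM1827, 88.9% (87.9 to 89.9) in byMM1736 and 91.6% (90.9 to 92.3) in byMM1832. It was the only pair in which 1 copy reached 90% of the pair. In RPL15 the A copy had 79.3% (78.5 to 80.0), 75.7% (75.1 to 76.3), 80.7% (80.2 to 81.2) and 84.0% (83.5 to 84.4). RPL15A (YLR029C) had 378, 437, 550 and 722 TPM, while RPL15B had 98.8, 141, 132 and 138 TPM, and thus did not share the high level of RPL15A in byMM1832. In RPL7 the A copy had 76.0% (75.3 to 76.8), 71.2% (70.5 to 71.9), 78.5% (77.9 to 79.1) and 80.4% (79.9 to 80.8), with the limit set by its shared words. The ratio of A to B differed 1.75-fold in RPL22, 1.68-fold in RPL15 and 1.65-fold in RPL7. Without byMM1777, 10 pairs differed by at least 25% and 5 reached 1.5-fold, with a median of 1.19-fold. Among the 33 other ribosomal protein pairs this difference ranged from 1.02-fold (RPS6) to 1.82-fold (RPS7). The shares of those pairs past 25% or 1.5-fold without byMM1777 were not computed. Whether the 10 and the 5 pairs stand out from other ribosomal protein pairs therefore cannot be read. An extreme ratio was in byMM1777 for 18 pairs, in byMM1832 for 17, in byMM1827 for 13 and in byMM1736 for 4. These counts were not made for the other ribosomal protein pairs.

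**Figure D3:**
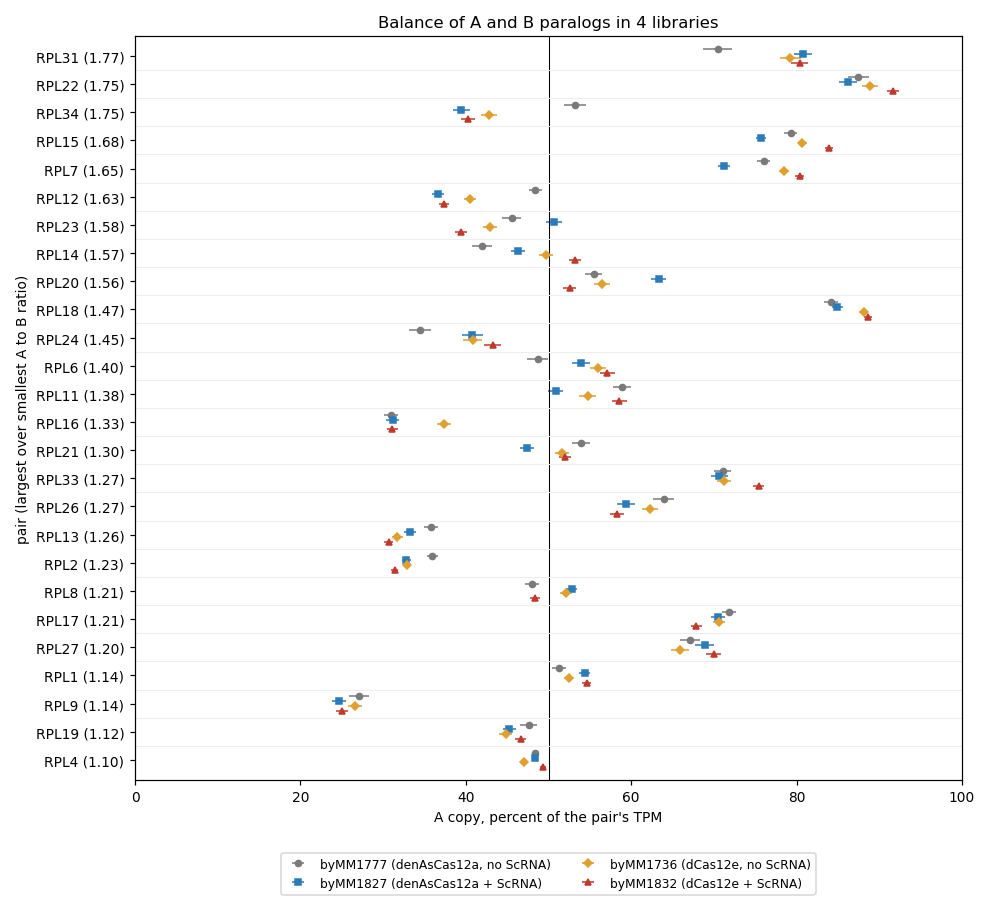
Share of the A copy in the summed TPM of each of the 26 pairs in the 4 libraries, with 95% counting intervals as bars and the largest over the smallest A to B ratio in parentheses. RPL31, RPL34 and RPL12 have byMM1777 (grey circles) apart from the other libraries, and RPL4 and RPL19 at the bottom hardly differ.

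Within pairs, both copies were above the median gene in all 26 pairs in the dCas12e pair of strains and between the ScRNA strains. In the denAsCas12a pair of strains both copies were above in 14, both below in 4 and on opposite sides in 8, and in the controls both were above in 21 and on opposite sides in 5, counted without regard to the counting intervals. The A copy had the larger centred ratio in 15 pairs and the B copy in 11 for dCas12e, and in 11 and 15 pairs for denAsCas12a. The centred ratios of the copies differed by a median of 0.26 for denAsCas12a and 0.18 for dCas12e, with largest differences of 0.82 and 0.45. These counts and differences within pairs were not computed for the other ribosomal protein pairs. Of the other 77 ribosomal protein genes, 49 were above the median gene for denAsCas12a, 76 for dCas12e, 65 in the controls and 76 between the ScRNA strains.

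The members were also described by features that did not choose them. An intron is annotated in 39 of the 60 genes, and the coding lengths are between 180 and 1164 bases. In the dCas12e pair the centred median was 0.53 for the 39 genes with and 0.47 for the 21 without an intron, and in the denAsCas12a pair 0.15 and 0.24. The 8 genes of 1 copy had medians of 0.46, 0.56, 0.62 and 0.89 in the denAsCas12a pair, the dCas12e pair, the controls and the ScRNA strains, the A copies 0.05, 0.52, 0.35 and 0.81, and the B copies 0.20, 0.51, 0.36 and 0.70. The 29 members with a Rap1 pattern had medians of 0.19, 0.51, 0.35 and 0.75, and the 31 without had 0.16, 0.55, 0.43 and 0.79. Across the 60 members, Spearman's correlation of the centred ratio with coding length was between -0.12 and 0.03 in the 4 comparisons, with GC content between -0.05 and 0.20, and with mean TPM between 0.12 and 0.36. These correlations are over genes of the same libraries, and mean TPM also holds the libraries compared.

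The other 77 genes of cytosolic ribosomal proteins had centred medians near those of the members. These were 0.15, 0.50, 0.38 and 0.82 in the same order of comparisons, against 0.18, 0.53, 0.40 and 0.78 for the members. In the dCas12e pair 21 of the 77 were past 1.5-fold higher, against 3.69% of all genes, and 0 lower, and between the ScRNA strains 61, against 4.71%, and 0. In the denAsCas12a pair 18 of the 77 were past 1.5-fold higher and 1 lower, where the members had 6 of 60 and 0, against 4.93% and 2.06% of all genes. In the controls 30 of the 77 were higher and 0 lower, where the members had 17 of 60 and 0, against 5.32% and 2.95%. They summed to 2.36% of all TPM in byMM1777, 2.41% in byMM1827, 2.83% in byMM1736 and 4.11% in byMM1832.

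The genes that regulate or assemble the ribosome had lower medians. Of the 14 regulators, 2, 5, 7 and 5 were above the median gene in the same order, with medians of -0.16, -0.23, -0.03 and -0.15. None of the 14 was past 1.5-fold, save IFH1, a coactivator of these promoters, which was lower in the dCas12e pair (-0.73) with 9.41 TPM in byMM1736 and 5.79 in byMM1832. RAP1 had 29.2, 24.7, 26.0 and 27.9 TPM in byMM1777, byMM1827, byMM1736 and byMM1832. HMO1, which binds many of these promoters, had 276, 248, 271 and 329 TPM. Of the 20 chaperones and assembly factors of the large subunit, 5 were above the median gene and 15 below it in the dCas12e pair, with a median of -0.08. SQT1, the chaperone of RPL10, had 111, 122, 108 and 121.2 TPM, and RRB1, the chaperone of RPL3, had 83.7, 64.9, 65.9 and 68.0 TPM. TIF6 (0.71 in the denAsCas12a pair and 0.60 in the controls) and NOP7 (-0.77 and -0.89) were the factors past 1.5-fold.

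**Figure D4:**
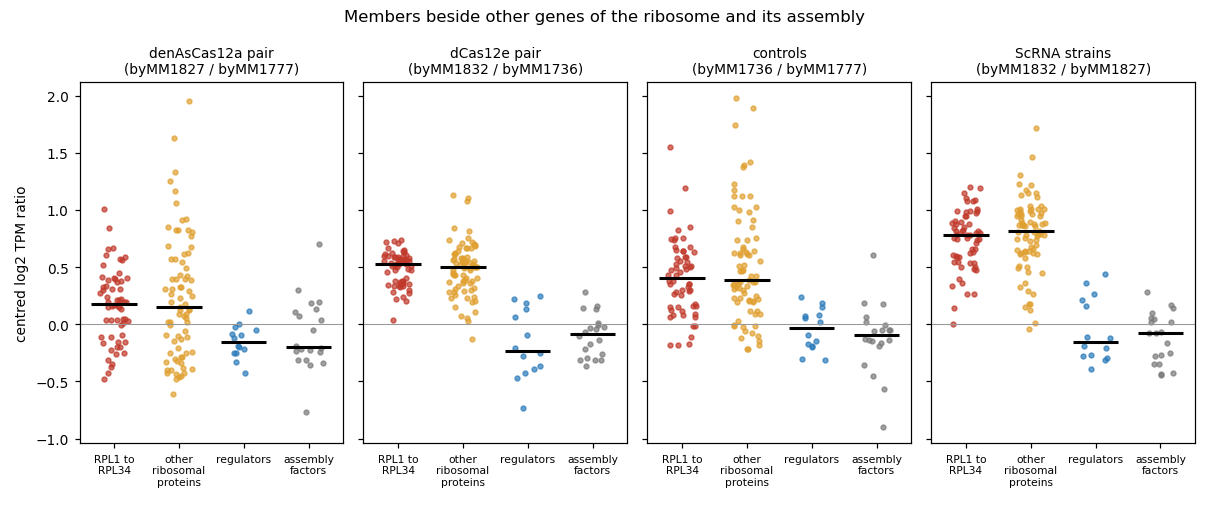
Centred log2 TPM ratio of the 60 members, the 77 other ribosomal protein genes, the 14 regulators and the 20 assembly factors in 4 comparisons, with 1 point per gene and the median as a black bar. The first 2 groups lie mostly above 0 in the dCas12e pair and between the ScRNA strains, while the medians of the regulators and assembly factors are below 0 in every panel.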

How the data were processed

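RNA of 4 strains (1 library each) was extracted with Trizol, made into libraries with an mRNA kit, and sequencing was done by Sangon Biotech. Per gene, the authors deposited the raw count of reads and TPM, for which they divided the count by a gene length and brought the libraries to a common total. The deposited TPM follow the coding length without introns within 5% for at least 99.5% of the genes that could be compared. The submitters' processing notes name FastQC, Trimmomatic, HISAT2, bedtools, StringTie and DESeq2, without a version. The genome build, the use of strand and the treatment of reads that fit several genes are not given in the sources used here. Columns that match no sample (2 in the counts and 2 in the TPM, 4 in all) were not used, nor were the tables of the authors' own comparisons, which hold fold changes, p-values and q-values.

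The members and the gene lists were chosen with earlier results of these data known. Per gene, the log2 ratio of TPM was centred on the median of genes whose mean reached 10 counts, and counted past 1.5-fold. With 1 library per strain no model was fitted and no p-value was computed. Counting intervals (95%, Clopper-Pearson) take reads as independent molecules and cover no difference between cultures. Balance was the TPM of A over that of A and B. Named with values were the 5 highest and 5 lowest members by mean TPM, the 5 largest and 5 smallest centred ratios per comparison, the 6 pairs with the largest change of balance, pairs with a copy at 90% or more, the 8 members of 1 copy, and the check genes. Members named beyond this, partners and role groups included, were chosen after their values were seen. The role groups were drawn up by hand. The regulators, assembly factors and mating-type markers are fixed lists. Of the gene names, 6017 matched the annotation of R64 (S288C), which gave introns, lengths and sequences. The second Rap1 pattern was added after the first was counted.

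Alternatives were the plain TPM ratio, TMM factors (edgeR 4.0.16), median-ratio size factors (DESeq2 1.42.0, R 4.3.3), ACT1 as reference, a pseudocount of 1 TPM, other thresholds, filters and denominators, and only members with at least 50% unique words. The ratio and interval were tested on simulated data. Python 3.11.15, numpy 2.4.6, pandas 2.3.3, scipy 1.17.1, Biopython 1.88 and matplotlib 3.10.9 were used.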

Additional observations from a re-analysis of the deposited data

Results flagged for a closer look

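In 3 members the ratio of TPM was exceeded by that of the median gene by at least 25% in the denAsCas12a pair, and exceeded it by at least 25% in the dCas12e pair, with both counting intervals clear of the median gene. On the log2 scale, the centred ratio of the dCas12e pair exceeded that of the denAsCas12a pair by 1.045 for RPL5, by 0.799 for RPL12A and by 0.80 for RPL24B. Each effect rests on 1 library per strain, so the difference between the pairs was not tested. In all, 17 members lay below the median gene in the denAsCas12a pair. All 60 members lay above it in the dCas12e pair, so the 17 are simply all those below it in the denAsCas12a pair. The shares of all genes with the pattern of the 3 or of the 17 were not computed. In byMM1827 against the other control, byMM1736, the centred ratios of the 60 members were between -0.68 and 0.24.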

How the results depend on the processing

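Of 114 alternative values, 78 stayed within the limits set (1.5 times for a count, the counting interval for a median or a share). With TMM or median-ratio size factors, a pseudocount of 1 TPM, or only members with unique words, no count of members or median moved past them. Against the other control library the centred median of the denAsCas12a pair turned to -0.296, with 0 members past 1.5-fold higher and 1 lower, and that of the dCas12e pair became 0.90, with 48 members higher. As plain TPM ratios, the denAsCas12a pair had 2 members higher and 2 lower, and the controls had 5 higher. Relative to ACT1, the denAsCas12a pair had 1 higher and 8 lower, the dCas12e pair had 6 higher, and the controls had 2 higher and 3 lower. At a threshold of 25%, taken as the larger over the smaller level, the denAsCas12a pair had 19 higher and 4 lower, the dCas12e pair 53 higher and the controls 36 higher. At 2-fold, 1, 0, 2 and 8 were higher in the denAsCas12a pair, the dCas12e pair, the controls and the ScRNA strains. With the whole counting interval past 1.5-fold, the denAsCas12a pair had 3 higher and the dCas12e pair 8. Shares of all genes were not computed for plain TPM past 1.5-fold, for ACT1, for these other thresholds or for whole intervals. Whether those counts differ from all genes therefore cannot be read. Centred on genes whose mean reached 100 TPM, the medians were 0.09 in the denAsCas12a pair, 0.27 in the controls and 0.68 in the ScRNA strains. The members took 0.979%, 1.004%, 1.17% and 1.65% of all counts in byMM1777, byMM1827, byMM1736 and byMM1832, and 1.801%, 1.864%, 2.17% and 3.08% of TPM without the 10 most abundant other genes. Pairs past the limit of balance numbered 9 at 1.5-fold, against 15 of the 33 other ribosomal protein pairs. They numbered 10 without byMM1777, for which the other pairs were not counted. The cause of these changes was not tested. The order of the 4 libraries by share was the same for TPM, for counts and without the 10 genes. The median half-width of the counting interval was 0.05 to 0.06 on the log2 scale, and the largest was 0.21. No paired analysis was possible because every strain has 1 library.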

Other observations

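Other genes of the ribosome had wider differences than any of the 60 members, and they were picked here after their values were seen. RPS30B, of the small subunit, had 62.8 TPM in byMM1777, 217 in byMM1827, 213 in byMM1736 and 255 in byMM1832. RPS28A, also of the small subunit, had 247, 684, 788 and 1214 TPM in the same order. RPL41B, which encodes the shortest protein of the ribosome, had 126, 252, 361 and 810 TPM. In these 3 genes byMM1777 was the lowest library, as it was for RPL29. RPS27A had 162, 148, 169 and 158 TPM, and it was the gene among the other 77 with a centred ratio below 0 (-0.13) in the dCas12e pair.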
